A study of Mus musculus with 9 samples.

Results

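Extracellular adenosine is sensed by 4 G protein-coupled receptors, and the transcripts of these receptors and of the proteins that make, move and remove adenosine were followed through the polarisation of mouse bone marrow-derived macrophages (BMDMs) and through photobiomodulation (PBM), the irradiation of cells with low-power laser light. The set held 9 genes of the 55655 rows in each deposited expression table: the receptors Adora1, Adora2a, Adora2b and Adora3, the ectonucleotidases Nt5e and Entpd1, the deaminase Ada, the kinase Adk and the nucleoside transporter Slc29a1. The genes were chosen by their known role and with earlier results of these data in view, including the measured M1 + PBM and M1 levels of Adora2b, so the values of the 9 genes are given as a description with no test. Of the 9, 5 reached the minimum of 1 FPKM in at least 3 of the 6 M1 and M1 + PBM libraries, and 7 reached it in at least 3 of all 9 libraries. FPKM, the number of fragments per kilobase of transcript scaled to the depth of the library, is a level per length and was used for every comparison between genes.

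All cells came from wild type C57BL/6 mice aged 6 to 8 weeks, from the marrow of femur and tibia, cultured for 7 days with macrophage colony-stimulating factor at 10 ng/mL. M0 macrophages received nothing further and no PBM (n = 3). M1 macrophages had been polarised with lipopolysaccharide (LPS) and interferon-γ (IFN-γ) (n = 3). M1 + PBM macrophages received the same LPS and IFN-γ together with PBM (n = 3), while the unirradiated M1 cells were kept in the dark chamber without it, and RNA of the last 2 groups was collected 12 h after PBM. The labels do not say whether the 3 libraries of a group came from separate mice or cultures, so any p-value measures only the spread between these libraries, and the cells were cultured alone, away from other cells of a tissue.

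Macrophages release ATP when activated or injured, and enzymes on the cell surface trim it to adenosine: CD39, encoded by Entpd1, removes phosphates from ATP and ADP, and CD73, encoded by Nt5e, turns AMP into adenosine. The receptors encoded by Adora2a and Adora2b couple to Gs and raise cyclic AMP, whereas those encoded by Adora1 and Adora3 couple to Gi and lower it. Signalling through Adora2a is known for restraining the release of TNF and IL-12 from activated macrophages. Inside the cell, adenosine kinase returns adenosine to AMP, adenosine deaminase turns it into inosine, and the equilibrative transporter ENT1, encoded by Slc29a1, lets it cross the plasma membrane in either direction.

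The sequences just before 2 of the receptor genes are shown because these genes, both higher in M1 than in M0 macrophages, had unlike values after PBM: Adora2b was lower in all 3 M1 + PBM libraries and Adora3 was not. The RefSeq table on GRCm38.p6 held a start for 8 of the 9 genes, and Adora2a was the gene without one. The 250 bases before the Adora2b start lie at chr11:62248734-62248983 on the plus strand, and those before the Adora3 start at chr3:105904171-105904420 on the plus strand. Letters that match 1 of 5 searched motifs, on either strand, are in capitals.
Adora2b: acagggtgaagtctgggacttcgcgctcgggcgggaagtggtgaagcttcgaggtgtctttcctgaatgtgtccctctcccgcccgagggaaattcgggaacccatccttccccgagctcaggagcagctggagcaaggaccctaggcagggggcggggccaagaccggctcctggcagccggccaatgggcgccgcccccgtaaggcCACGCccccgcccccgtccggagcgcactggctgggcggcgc
Adora3: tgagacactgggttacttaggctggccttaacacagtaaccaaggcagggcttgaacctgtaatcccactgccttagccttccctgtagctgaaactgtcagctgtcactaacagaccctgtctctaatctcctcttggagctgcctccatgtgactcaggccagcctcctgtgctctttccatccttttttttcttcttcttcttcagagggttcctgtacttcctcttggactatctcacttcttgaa
The motifs were the hypoxia response element cores ACGTG and GCGTG, the cyclic AMP response element core TGACG, the κB consensus and the interferon-stimulated response element pattern GAAANNGAA. The Adora2b window held 1 match to GCGTG, read on the minus strand, none of the other 4, and a GC content of 69.6%. The Adora3 window held none of the 5 and had a GC content of 48.8%, against a median of 52.4% over the 32851 RefSeq windows. These letters are common: 28.2% of all windows held GCGTG, 17.8% TGACG, 16.6% ACGTG, 7.25% the κB consensus and 7.13% the interferon-stimulated pattern. With only the outer letters of the κB consensus fixed, a looser search that was run first, the Adora2b window held 4 matches and the Adora3 window none, and 45.8% of all windows held at least 1. A match is a description of letters and not of a bound factor.

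The libraries carried the macrophage genes Adgre1 (299 to 864 FPKM), Itgam (34.3 to 109) and Csf1r (156 to 343) at high levels, and the M1 genes Nos2 (65.9 to 290.0), Cd86 (7.95 to 15.9) and Il12b (10.5 to 81.4) in all M1 and M1 + PBM libraries. In M0 libraries Nos2 was at most 1.79 FPKM, Cd86 at most 1.35 and Il12b at most 0.236. M0 replicate 3 stood apart from the other 2 M0 libraries: its 10 M1 markers summed to 337 FPKM against 32.4 and 38.0, and its 9 stromal markers to 240 FPKM against 8.64 and 11.3. M1 replicate 2 held more liver transcripts than the other libraries, with 10 liver genes summing to 18.6 FPKM against at most 3.61 elsewhere and Alb at 9.01 FPKM there and at 0 in the other 8 libraries. Stromal markers summed to 7.49 to 32.2 FPKM in the 6 stimulated libraries. Markers of other cells had highest sums of 28.1 FPKM for 10 neutrophil genes, 1.58 for 8 dendritic cell genes, 6.58 for 9 lymphoid genes, 1.13 for 7 erythroid genes and 1.57 for 6 mast cell and basophil genes, and 6 of the 10 neutrophil, 3 of the 8 dendritic cell, 6 of the 9 lymphoid, 1 of the 7 erythroid and 5 of the 6 mast cell and basophil markers were at or below 0.1 FPKM in every library. Depth estimated from the smallest FPKM steps was 31080000 to 35200000 fragments a library in M0, 31440000 to 40160000 in M1 and 34880000 to 42260000 in M1 + PBM. These depths are approximate, since only 20.9% to 24.5% of low values lay near whole fragments, against 10% by even spread. The estimated fragments of a gene also take its longest annotated transcript and are approximate.

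The order of the 9 genes was not the same before and after polarisation. In M0 macrophages Entpd1 (24.5 ± 11.7 FPKM, mean ± SD, n = 3) and Slc29a1 (13.9 ± 2.43 FPKM) stood highest with overlapping ranges, followed by Adk, Adora2b and Ada, each overlapping the next. In M1 macrophages Adora2b (32.1 ± 1.87 FPKM) and Adora2a (31.7 ± 3.71 FPKM) stood highest with overlapping ranges, above Entpd1 and Slc29a1, which overlapped each other. In M1 + PBM macrophages the same 4 genes led, with Adora2a at 21.8 ± 14.6 FPKM and Adora2b at 14.2 ± 1.18 FPKM overlapping. Adora3, Adk and Ada followed at about 1 FPKM in both stimulated groups, each overlapping the next, and Nt5e and Adora1 were last in every group.

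**Figure D1:**
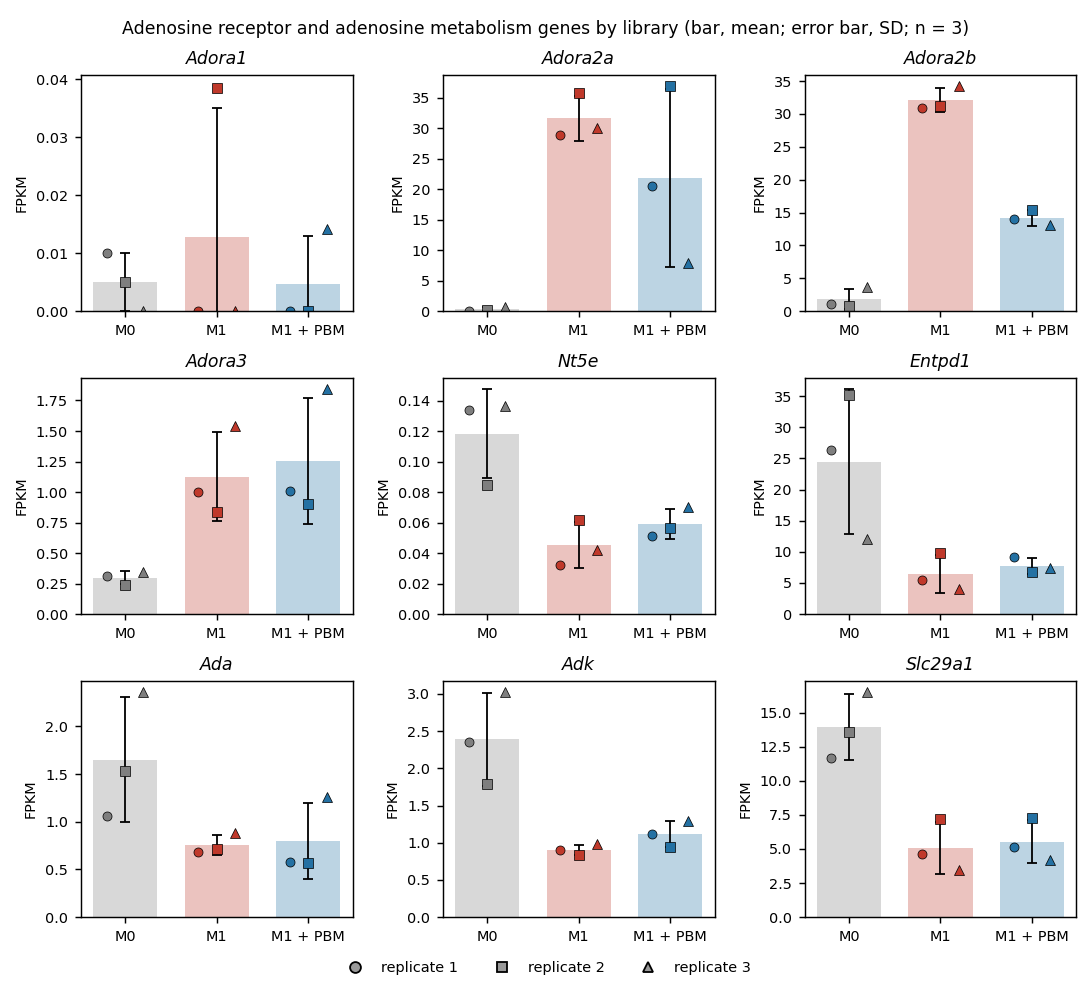
FPKM of each of the 9 genes (vertical axes, 1 scale per gene) in the 3 M0, 3 M1 and 3 M1 + PBM libraries. Points are libraries with 1 symbol per replicate number, bars are means and error bars are SDs cut off at 0. Adora2b is the gene whose M1 + PBM libraries (13.0 to 15.4 FPKM) all lie below its M1 libraries (30.8 to 34.3 FPKM), and the 3 Adora2a libraries of M1 + PBM spread from 7.88 to 37.0 FPKM.

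Adora2b (ENSMUSG00000018500) encodes the A2B receptor, the low-affinity Gs-coupled receptor of the family. Its level was 1.11, 0.733 and 3.60 FPKM in M0 replicates 1, 2 and 3, 30.8, 31.3 and 34.3 FPKM in M1, and 14.1, 15.4 and 13.0 FPKM in M1 + PBM. The 3 groups did not overlap, with M0 lowest, M1 + PBM between and M1 highest, and the highest M0 value was that of M0 replicate 3. M1 + PBM was lower than M1 by 1.13 on the log2(FPKM + 1) scale (SE 0.10), the scale on which 1 is added to each FPKM, and its mean was 44.1% of the M1 mean. By replicate number the difference was -1.08, -0.98 and -1.33. Without both libraries of replicate number 2, which include the M1 library with the most liver transcripts, it was -1.20. The estimated number of fragments behind each of these 6 values was 891 to 2285.

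Adora2a (ENSMUSG00000020178) encodes the high-affinity Gs-coupled receptor. Its level was 0.037, 0.153 and 0.665 FPKM in M0 replicates 1, 2 and 3, 29.0, 35.9 and 30.1 FPKM in M1, and 20.5, 37.0 and 7.88 FPKM in M1 + PBM. Every stimulated library was above every M0 library, whereas M1 + PBM replicate 2 exceeded all 3 M1 libraries and replicate 3 was the lowest of the 6. M1 + PBM minus M1 was -0.75 on the log2(FPKM + 1) scale (SE 0.49), and by replicate number -0.48, 0.043 and -1.81. Leaving out 1 library at a time moved the difference between -1.23, without M1 + PBM replicate 2, and -0.19, without M1 + PBM replicate 3. Marker genes are set beside this spread. The share of all rows with each order is not given here, so nothing is read from the marker counts. The 10 M1 markers summed to 1230, 1694 and 1064 FPKM in M1 + PBM replicates 1, 2 and 3, the order of Adora2a, against 2119 to 2237 FPKM in M1, but by gene 5 of the 10 had that order, among them Tnf and Il1b, 2 had the reverse, Cxcl9 and Cxcl10, and 3 had another, with Cd86 highest in replicate 3. The 9 stromal markers summed to 27.0, 7.49 and 32.2 FPKM, the reverse order, against 15.5 to 17.5 FPKM in M1, and 7 of the 9 had the reverse order by gene. The part of these markers in the Adora2a values was not tested.

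Adora3 (ENSMUSG00000000562) encodes the Gi-coupled A3 receptor. It was at 0.314, 0.241 and 0.342 FPKM in M0, 1.00, 0.839 and 1.54 FPKM in M1, and 1.01, 0.906 and 1.85 FPKM in M1 + PBM. All stimulated libraries were above all M0 libraries, and the M1 and M1 + PBM libraries overlapped, with a difference of 0.075 on the log2(FPKM + 1) scale (SE 0.20) that was positive within each replicate number, at 0.008, 0.052 and 0.16. With median-of-ratios scaling the difference was 0.026. Of the 12238 rows that passed the minimum in these 6 libraries, 8026 were higher in M1 + PBM, so nothing is read from the shared sign. The gene shares 779 exon bases on the same strand with Tmigd3, which was at most 0.279 FPKM, so reads in the shared part could be split between them. Adora1 (ENSMUSG00000042429), the gene of the Gi-coupled A1 receptor, was at most 0.038 FPKM, about 7 estimated fragments, and was at 0 in 5 of the 9 libraries. No difference in Adora1 was detectable at this depth.

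Adora2a and Adora2b together made up most receptor transcripts before as well as after polarisation, with Adora2a at 2.53% to 14.4% of the sum in M0. The summed FPKM of the 4 receptor genes was 1.13 to 4.61 in M0, 60.8 to 68.0 in M1 and 22.8 to 53.3 in M1 + PBM, and these ranges did not overlap. Adora2b supplied 64.7% to 78.1% of the sum in M0 and 46.0% to 52.0% in M1. In M1 + PBM its share was 39.5%, 28.9% and 57.3% in replicates 1, 2 and 3, while Adora2a supplied 57.7%, 69.4% and 34.6%. The ratio of Adora2a to Adora2b was 0.88 to 1.15 in M1 and 1.46, 2.40 and 0.60 in M1 + PBM, so irradiated libraries lay on both sides of the M1 range. As these are bulk samples, fewer cells carrying a transcript and less RNA per cell cannot be told apart.

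**Figure D2:**
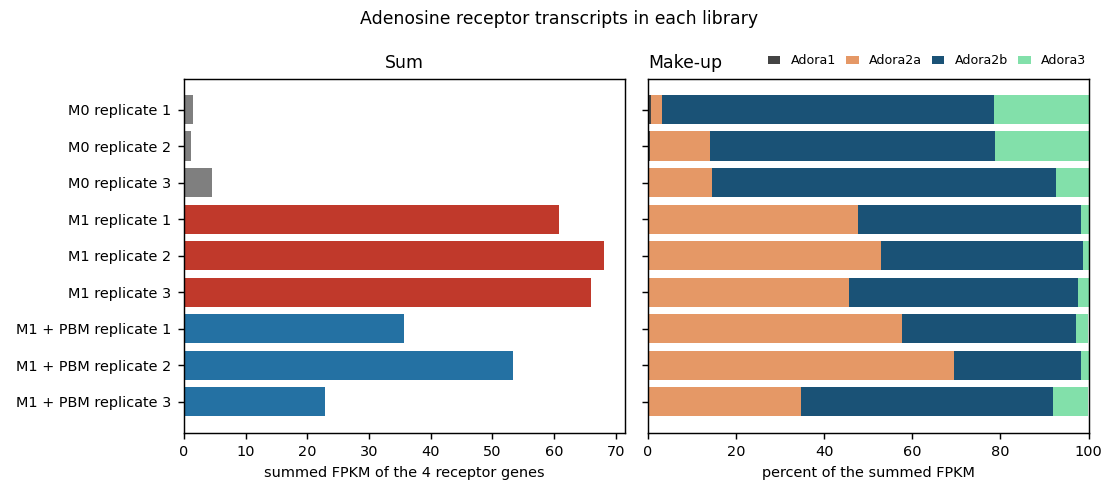
Left, summed FPKM of the 4 adenosine receptor genes in each of the 9 libraries (horizontal axis, FPKM, coloured by group). Right, percent of that sum from each receptor gene. The sum is 1.13 to 4.61 in M0, 60.8 to 68.0 in M1 and 22.8 to 53.3 in M1 + PBM, and Adora2b takes 28.9% to 57.3% of it in M1 + PBM against 46.0% to 52.0% in M1.

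Of the ectonucleotidases, Entpd1 (ENSMUSG00000048120) was measured well and Nt5e (ENSMUSG00000032420) hardly at all. Entpd1 was at 26.3, 35.2 and 12.0 FPKM in M0, 5.44, 9.82 and 4.11 FPKM in M1, and 9.21, 6.72 and 7.44 FPKM in M1 + PBM. All stimulated libraries were below all M0 libraries, M0 replicate 3 being nearest to them, and the M1 and M1 + PBM libraries overlapped. The difference of M1 + PBM from M1 was 0.30 on the log2(FPKM + 1) scale (SE 0.28), with 0.67, -0.49 and 0.72 by replicate number. The highest M1 value, and the 1 pair with a negative difference, belong to M1 replicate 2, the library with the most liver transcripts, and without it the difference was 0.61. With M1 replicate 3 left out it was 0.06, and with M1 + PBM replicate 1 left out 0.19. The part of that library in the Entpd1 difference was not tested further. Nt5e was at 0.085 to 0.137 FPKM in M0, 0.032 to 0.062 FPKM in M1 and 0.051 to 0.070 FPKM in M1 + PBM, or about 5 to 19 estimated fragments a library. Its M0 values lay above all others and M1 and M1 + PBM overlapped, but with so few fragments no difference is read from them.

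Slc29a1 and Adk were lower in every stimulated than in every M0 library, Ada was lower in every M1 library, and all 3 overlapped between M1 and M1 + PBM. Slc29a1 (ENSMUSG00000023942) was at 11.7, 13.6 and 16.5 FPKM in M0, 4.59, 7.17 and 3.48 FPKM in M1, and 5.16, 7.25 and 4.17 FPKM in M1 + PBM, where the difference from M1 was 0.12 on the log2(FPKM + 1) scale (SE 0.26), positive within each replicate number at 0.14, 0.014 and 0.21. Adk (ENSMUSG00000039197) was at 2.35, 1.79 and 3.03 FPKM in M0, 0.900, 0.837 and 0.979 FPKM in M1, and 1.12, 0.940 and 1.29 FPKM in M1 + PBM. It was higher in M1 + PBM than in M1 within each of the 3 replicate numbers, by 0.16, 0.079 and 0.21 on the log2(FPKM + 1) scale, although the groups overlapped. Of the 12238 rows tested, 8026 were higher in M1 + PBM and 4212 lower, so nothing is read from the shared signs of Adk and Slc29a1. With median-of-ratios scaling the Slc29a1 difference was 0.056. Ada (ENSMUSG00000017697) was at 1.07, 1.53 and 2.36 FPKM in M0, 0.688, 0.710 and 0.879 FPKM in M1, and 0.576, 0.565 and 1.26 FPKM in M1 + PBM, and M1 + PBM replicate 3 lay inside the M0 range. Neither Adk nor Ada reached the minimum level without the M0 libraries.

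**Figure D3:**
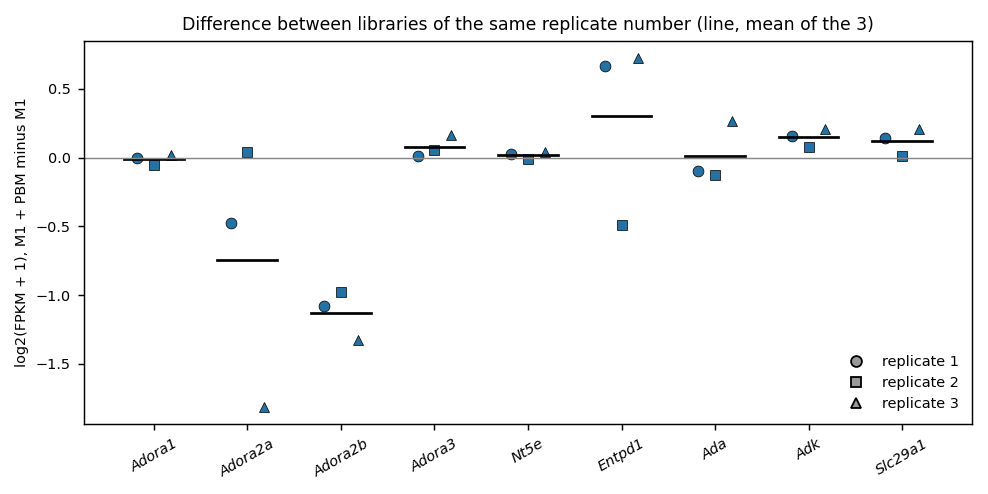
Difference in log2(FPKM + 1) between the M1 + PBM and the M1 library of the same replicate number (vertical axis), for each of the 9 genes (horizontal axis). Symbols are replicate numbers and lines are means of the 3. Adora2b lies at -1.08, -0.98 and -1.33, Adora2a spreads from 0.043 to -1.81, and Entpd1 has 2 values above 0 and 1 below.

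Set beside M0, 4 of the 7 genes that passed the minimum were at least 2-fold apart in M1 with no overlap between the 3 and 3 libraries, 2 higher and 2 lower. Over all 13915 rows that passed, 7.81% were higher and 13.7% were lower by the same rule, which served as the background and not as a test, since M0 was deposited in a table of its own. The M1 minus M0 difference on the log2(FPKM + 1) scale was 4.69 for Adora2a (SE 0.23), 3.69 for Adora2b (SE 0.43), -1.73 for Entpd1 (SE 0.54) and -1.33 for Slc29a1 (SE 0.29). Adora3 at 0.70, Ada at -0.57 and Adk at -0.82 were apart without overlap and under 2-fold on this scale, which understates differences of low genes. The median of all rows was -0.34, so the Adora2a difference was 5.03 and the Slc29a1 difference -0.99 relative to it. When the libraries were rescaled by the median of ratios, the median of all rows was 0.04, the background shares became 11.7% higher and 6.93% lower, Adora2a and Adora2b stayed higher at 4.92 and 4.05, and neither lower call remained, with Entpd1 at -1.26 and overlapping and Slc29a1 at -0.88. Ada, at -0.30, then overlapped M0 as well. With a pseudocount of 0.1, 6 of the 7 genes were past 2-fold, Adora3 at 1.59 and Adk at -1.28 being added. The background shares were then 9.33% higher and 22.0% lower. Adora2a and Adora3 were under the minimum in every M0 library and passed it only through the stimulated libraries, where they were high. Adk and Ada passed it only with the M0 libraries. The rows of the background passed the same minimum. Without M0 replicate 3 the differences were 4.89 for Adora2a, 4.11 for Adora2b, -2.15 for Entpd1 and -1.21 for Slc29a1.

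Set beside the same M0 libraries, M1 + PBM also had 4 of 7 genes past 2-fold without overlap, with Adora2a at 3.94 (SE 0.64), Adora2b at 2.56 (SE 0.44), Entpd1 at -1.43 (SE 0.46) and Slc29a1 at -1.21 (SE 0.24) on the log2(FPKM + 1) scale. The background was 7.13% higher and 10.3% lower over the 13915 rows. Under the median-of-ratios scaling Entpd1 was at -1.04 with overlap and Slc29a1 at -0.84, so again neither lower call remained. Both comparisons rest on the same M0 libraries.

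Between M1 + PBM and M1, in 1 table and without M0, 1 of the 5 genes that passed the minimum was lower without overlap, Adora2b, against 2.52% of all 12238 rows that were lower and 8.51% that were higher in this way. Nothing is read from this count, because this contrast was used to choose the genes. The members nearest to Adora2b in size of difference, Adora2a at -0.75 and Entpd1 at 0.30, had overlapping groups.

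The wider pathway was described with 94 genes in 5 lists, of which 52 passed the minimum in the 6 libraries. At an unadjusted P of at most 0.05, which 4.44% of all rows reached, 2 of the 52 genes rose in M1 + PBM and none fell, and in the same fit with limma, a linear model over all rows, none of the 52 passed with an adjusted P under 0.05, which 0.00817% of all rows reached, or with an unadjusted P no higher than 0.05 and a log2 difference of at least 1 in either direction, the thresholds of the study, which 0.261% of all rows reached. In all, 34 of the 52 were higher and 18 lower, beside 8026 higher and 4212 lower of all 12238 rows. The median difference was 0.083 against 0.058 over all rows. With median-of-ratios scaling 28 were higher and 24 lower, beside 5942 and 6296 of all rows. No lean of the pathway is read from these counts. Prkaca, the main catalytic subunit of protein kinase A, was at 14.7, 16.6 and 14.5 FPKM in M1 and at 19.2, 17.0 and 20.3 FPKM in M1 + PBM, a difference of 0.29 (SE 0.11, limma adjusted P = 0.90). Xdh, xanthine dehydrogenase, which carries purine breakdown on to uric acid, was at 48.7, 66.4 and 64.4 FPKM in M1 and at 86.0, 68.3 and 81.2 FPKM in M1 + PBM, a difference of 0.39 (SE 0.16, limma adjusted P = 0.90). For both genes the 3 irradiated libraries lay above the 3 M1 libraries, the lowest by a small margin. With the replicate number as a block neither gene passed and 1 other of the 52 did, and neither passed when M1 replicate 1, M1 + PBM replicate 1 or M1 + PBM replicate 3 was left out.

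By list, none of 11 genes of nucleotide hydrolysis, none of 3 of nucleoside transport and ATP release, 1 of 15 intracellular adenosine and purine enzymes, none of 7 G proteins and adenylyl cyclases and 1 of 16 cyclic AMP effectors and phosphodiesterases rose at an unadjusted P of at most 0.05, and no gene of any list fell. The components through which Gs-coupled receptors act were present in both groups. Gnas, the Gs alpha subunit, was at 21.7 ± 2.42 FPKM in M1 and 24.3 ± 0.55 FPKM in M1 + PBM, and Adcy7, an adenylyl cyclase, at 27.9 ± 2.37 FPKM and 36.1 ± 8.95 FPKM, with overlapping libraries. Gnai2, a Gi alpha subunit, was at 122.5 ± 9.64 FPKM and 130.5 ± 10.2 FPKM, again with overlap. These 3 were picked once their values were known.

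Larger differences in the wider pathway lay between M0 and M1. Of 61 genes that passed the minimum in the 9 libraries, 10 were higher and 15 lower in M1 by at least 2-fold without overlap, beside the 7.81% and 13.7% of all rows, and with median-of-ratios scaling 10 and 10, beside 11.7% and 6.93%. Among the 15 lower genes, Entpd5, Enpp1, Slc17a9, Ak1 and Adcy3 reached the minimum only through the M0 libraries, where they were high. Among the 10 higher genes, Acpp reached it only through the stimulated libraries, and Cd38 was above 1 FPKM in M0 only in replicate 3, at 1.06. The rows of the background passed the same minimum. The genes whose levels follow were chosen after their values were seen. The ectoenzyme Cd38, which consumes NAD, was at 0.077 to 1.06 FPKM in M0, 61.5 to 86.6 FPKM in M1 and 50.9 to 95.1 FPKM in M1 + PBM. The concentrative nucleoside transporter Slc28a2, which carries adenosine into cells with sodium, was at 3.63 to 5.20 FPKM in M0, 84.0, 51.4 and 249.5 FPKM in M1 replicates 1, 2 and 3 and 64.8 to 94.8 FPKM in M1 + PBM, opposite in direction to the equilibrative transporter Slc29a1. Pnp, purine nucleoside phosphorylase, which splits inosine, was at 16.2 to 45.6 FPKM in M0, 249 to 299 FPKM in M1 and 241 to 266 FPKM in M1 + PBM, with the caveat that the paralogue Pnp2 can share its reads. These 3 genes were higher in every stimulated library than in every M0 library, and the M1 and M1 + PBM libraries overlapped.

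Among the genes lower in M1, a further 4 were picked once their values were known, and 36 of the 61 genes were neither higher nor lower. Hprt, which salvages hypoxanthine, was at 59.8 to 67.4 FPKM in M0, 16.0 to 17.4 FPKM in M1 and 17.8 to 19.8 FPKM in M1 + PBM, a difference of -1.85 between M1 and M0 on the log2(FPKM + 1) scale. Adssl1, an adenylosuccinate synthase on the path from IMP to AMP, was at 31.6 to 60.0 FPKM in M0, 2.73 to 3.57 FPKM in M1 and 1.74 to 8.89 FPKM in M1 + PBM. The cyclase Adcy9 was at 11.02, 10.8 and 7.29 FPKM in M0 and at 0.655 to 1.95 FPKM in M1, and Prkar2a, a regulatory subunit of protein kinase A, at 9.66 to 13.4 FPKM in M0 and 1.32 to 2.41 FPKM in M1. The 4 genes were lower in M1 with median-of-ratios scaling as well, at -1.36, -2.96, -1.80 and -1.72 on the log2 scale in the order given. The phosphodiesterase Pde4b, which degrades cyclic AMP and was picked in the same way, was higher, at 0.739 to 3.66 FPKM in M0, 8.50 to 11.6 FPKM in M1 and 7.09 to 9.53 FPKM in M1 + PBM.

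**Figure D4:**
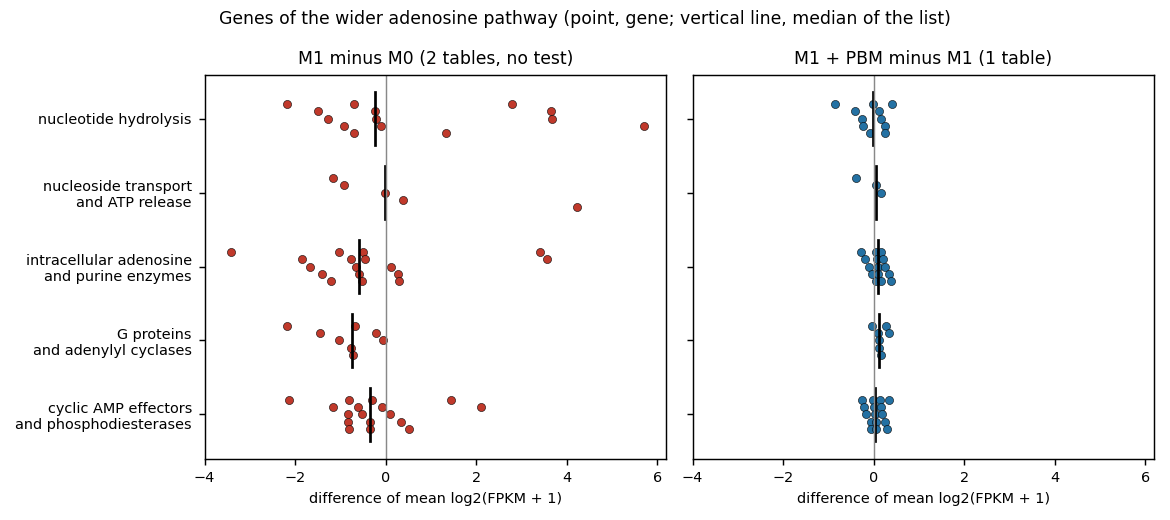
Difference of mean log2(FPKM + 1) (horizontal axes) for the genes of 5 lists of the wider adenosine pathway (vertical axis). Left, M1 minus M0 for 61 genes, set side by side from 2 tables with no test. Right, M1 + PBM minus M1 for 52 genes. Points are genes and vertical lines are the medians of the lists. Differences reach from -3.41 to 5.71 on the left and from -0.86 to 0.41 on the right.

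The 5 genes whose profile over the 6 M1 and M1 + PBM libraries lay nearest to that of Adora2b were AA467197, Hif1a, Olr1, Tarm1 and Socs1. Nearness was the mean absolute difference in log2(FPKM + 1) after centring each gene, which was 0.13 for AA467197 and for Hif1a, 0.16 for Olr1, 0.19 for Tarm1 and 0.20 for Socs1, against a median of 0.60 over 12237 rows. Hif1a, the oxygen-regulated subunit of hypoxia-inducible factor, was at 46.5 ± 2.90 FPKM in M1 and 23.3 ± 2.41 FPKM in M1 + PBM. AA467197 was at 61.4 ± 12.2 and 30.8 ± 0.92 FPKM, and Olr1, the lectin-like receptor for oxidised low-density lipoprotein, at 2.18 ± 0.45 and 0.689 ± 0.17 FPKM. Tarm1, an activating receptor of myeloid cells, was at 143 ± 10.4 and 85.6 ± 17.2 FPKM, and Socs1, a feedback inhibitor of cytokine signalling, at 14.1 ± 1.92 and 7.78 ± 0.88 FPKM. In M0 these 5 genes were at 12.8 ± 3.41 FPKM for Hif1a and at 0.086 to 0.368 FPKM on average for the other 4, beside 1.81 ± 1.56 FPKM for Adora2b. The likeness is over 6 libraries that share 2 conditions, and it is a description with no test.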

How the data were processed

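RNA of 9 BMDM libraries (3 M0, 3 M1, 3 M1 + PBM) was sequenced by the study with strand-specific TruSeq libraries, and the authors deposited FPKM values of 55655 rows in 2 tables, 1 for M0 and 1 for M1 and M1 + PBM. The study's methods name Cufflinks for the values, and the submitters' processing notes name Bowtie 0.12.2 and mm9. The tables also hold 320 rows with assembled-transcript names (MSTRG) that these tools do not account for, so the annotation behind the values is unsettled. The tables were made apart, so M0 was set beside the others without a test. Exons shared on the same strand, as of Adora3 with Tmigd3 (779 bases), may move reads between genes. Antisense exons, as of Adora1 with Mybph (1162 bases) and Slc29a1 with Gm17080 (275 bases), could do so only if the strand was not used for the values. Whether it was used is not known here.

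FPKM are not counts. Only 20.9% to 24.5% of low values came out as whole fragments within 0.05 (10% by even spread), so no count test was run. log2(FPKM + 1) of rows with at least 1 FPKM in at least 3 of the 6 libraries was fitted with limma 3.58.1 in R 4.3.3 (eBayes with trend, Benjamini-Hochberg over 12238 rows). The code was tested on simulated data. Groups and replicate numbers came from the sample titles. Replicates of the same number deviated together. Between the M1 and M1 + PBM deviations from their group means, r was 0.16, 0.47 and 0.46. Other pairs were at -0.49 to 0.03, but deviations cancel within a group, so these lower values are not separate evidence. No source states a shared batch. By this sign alone the numbers were taken to pair libraries in the differences by replicate number and in the block. The SEs of M1 + PBM minus M1 and the P values come from the fit without pairing, unless the block is named.

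The members and the lists were chosen with earlier results of these data known. Genes named were the 9 members, listed genes with an unadjusted P of at most 0.05, the 5 genes nearest to Adora2b and 6 label checks, and any other gene is said to be named after its values were seen. Alternatives were a pseudocount of 0.1, no minimum, a mean of at least 5 FPKM, median-of-ratios scaling, quantile normalisation, no trend, a replicate block and leaving out each library. Promoter windows came from RefSeq on GRCm38.p6, a later build than the notes name, and no coordinate was taken from the tables.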

Additional observations from a re-analysis of the deposited data

How the results depend on the processing

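The Adora2b difference between M1 + PBM and M1 lay between -1.21 and -1.07 on the log2(FPKM + 1) scale under the other pseudocount, the 2 scalings and the leave-outs, while the filters, the trend and the block cannot move a difference of means. Under the same settings it was 0.06 to 0.61 for Entpd1 and -1.23 to -0.19 for Adora2a, whereas Adora3 and Slc29a1 each changed sign under 2 settings (-0.11 to 0.21 and -0.08 to 0.36), within 1 SD of their libraries. The 2 wider pathway genes at an unadjusted P of at most 0.05 became 5 with no minimum (3 lower, 2 higher, 92 genes tested) and 1 with median-of-ratios scaling (lower). Over all rows 1318 of 31779 passed with no minimum and 520 of 12238 with the scaling. Leaving out 1 library gave 0 to 9 wider pathway genes, the most without M1 + PBM replicate 2, and 7 without M1 replicate 2. It gave 0 when M1 replicate 1, M1 + PBM replicate 1 or M1 + PBM replicate 3 was dropped. The count over all 12238 rows moved as well, from 543 to 930 without M1 + PBM replicate 2 and 1089 without M1 replicate 2. In the settings that gave 0 it was 312, 259 and 342, in the order named. The cause was not tested.

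With the replicate number as a block, 1 wider pathway gene passed (Acpp, lower) in place of the main 2. The pairing changed no other call of a listed gene printed here, but the counts over all rows moved. Over all rows 32 passed the thresholds of the study in the main fit without the block, 29 lower and 3 higher, and 543 an unadjusted P of at most 0.05. The paper names no model for its gene calls and reports more genes at these thresholds, most of them higher after PBM. The counts of 32 and 543 stood against 45 and 988 with the block, 75 and 542 with a pseudocount of 0.1, and 69 and 1089 without M1 replicate 2. The 543 split into 177 lower and 366 higher, and 520 with median-of-ratios scaling into 283 lower and 237 higher.

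Members past 2-fold without overlap numbered 2 under median-of-ratios scaling in M1 against M0 and 2 in M1 + PBM against M0, in place of 4 and 4, because Entpd1 and Slc29a1 were no longer past both limits. With a pseudocount of 0.1 they numbered 6 in each. Of all rows in M1 against M0, 11.7% were higher and 6.93% lower with that scaling, and 9.33% and 22.0% with that pseudocount. In M1 + PBM against M0 the shares were 9.94% and 5.81% with the scaling and 8.79% and 17.1% with the pseudocount. With median-of-ratios scaling and M0 replicate 3 left out, an alternative chosen after seeing the data, 3 members were past both limits in M1 against M0. Adora1 and Nt5e had at most 7 and 19 estimated fragments a library, and no difference in them is read at this depth.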
